A study of Prunus persica with 25 samples.

Results

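The gibberellin (GA) receptor gene *GID1B* (PRUPE_8G249800) and the DELLA genes *RGA* (PRUPE_1G329600) and *RGL2* (PRUPE_3G162500) of peach were followed in vegetative and flower buds before and during winter chilling. These 3 genes were taken, of 26873 counted, by their identifiers. Their names are those of the study, which lists them among hormone genes picked as differentially expressed on these samples, so a call here is not independent evidence of their direction. Gibberellins are growth hormones that act by removing repressors. The hormone binds its receptor GID1 in the nucleus, the loaded receptor binds a DELLA protein, and the DELLA protein is then marked by a ubiquitin ligase and degraded, which frees the growth genes it held back. DELLA proteins take their name from a run of conserved amino acids, and in *Arabidopsis thaliana* RGA restrains stem elongation while RGL2 restrains seed germination. In the buds of fruit trees GA is studied for its part in growth arrest and in the return to growth after winter. The counts are of transcripts, and the amounts of receptor and DELLA protein were not measured in the files used here.

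All buds came from the peach cultivar Fantasia, taken as the chilling of the winter accumulated, which the study counts in chilling units (CU). Vegetative buds of year A were taken at 0CU, 475CU and 770CU, and those of year B at Pre0CU, 200CU, 475CU and Post770CU, with 3 libraries per collection. Flower buds of year B were taken at Post770CU and at Pre0CU, with 2 libraries each. Pre0CU was sampled before any chilling unit had been gained, and Post770CU is the one whose data columns carry the name 930. The study dates Pre0CU to early September and Post770CU to late December. It dates 200CU and 475CU of year B to early and late November, so the first step of year B was the longest in time. In year A 0CU fell at the end of October and 770CU in late December, so year A starts later in the season. The word winter below stands for these spans. Day length, season and chilling changed together over the collections and cannot be told apart. The study formed its biological replicates from axillary buds of 3 or 4 trees. The p-values rest on the spread between such libraries within a collection, estimated for each gene over all collections of a fit together. The labels give polyA RNA for 7 libraries, which are the vegetative buds at Post770CU and all flower buds, and total RNA for the other 18. The labelled RNA and the collection therefore cannot be told apart where vegetative Post770CU is set against other vegetative collections. The same holds for the bud type at Pre0CU, whereas at Post770CU both bud types carry the polyA label. The submitters give the same mRNA library protocol for all libraries, so it is not known whether the preparation differed as the labels do.

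The libraries of year A held between 39615840 and 68355366 counts, with a median of 51416297. Vegetative libraries of year B held between 39891412 and 71239880 (median 51339124.5) and flower libraries between 44894673 and 61090788 (median 51089759.5). The 3 genes had 1722 to 38696 counts per library, far above the filter on low counts, and all 3 were tested. Even numbers made up 96.2% (median) of the nonzero counts of a year A library, against 49.9% of those of a vegetative library of year B. Levels are given as CPM, the counts scaled to library size, after TMM normalization, and a difference is a log2 fold change from edgeR's quasi-likelihood test. A gene was called with an adjusted p (Benjamini-Hochberg over all genes tested) below 0.05 and a fold change above 1.4. Levels are compared within a gene, since gene lengths were not used here.

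In the vegetative buds of year B the receptor gene *GID1B* fell at each collection set against Pre0CU, *RGA* fell from 200CU on, and *RGL2* fell from 475CU on. *GID1B* had 499, 526 and 527 CPM at Pre0CU, 323, 334 and 359 CPM at 200CU, 296, 294 and 264 CPM at 475CU, and 204, 189.7 and 191 CPM at Post770CU. The replicates of the 4 collections did not overlap, and the order was strictly downward from Pre0CU to Post770CU. The log2 fold change of *GID1B* was -0.61 (SE 0.06, adjusted p = 3.03e-07) at 200CU over Pre0CU. At 475CU over Pre0CU it was -0.86 (SE 0.07, adjusted p = 2.44e-09), and at Post770CU over Pre0CU it was -1.41 (SE 0.07, adjusted p = 9.65e-13), a 2.65-fold lower level. These 3 comparisons share the Pre0CU libraries. Between neighbouring collections the step at Post770CU over 475CU passed the test (-0.55, SE 0.06, adjusted p = 3.13e-06). The step at 475CU over 200CU was -0.25 (SE 0.06, adjusted p = 0.0132), with a fold change under the limit.

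**Figure D1:**
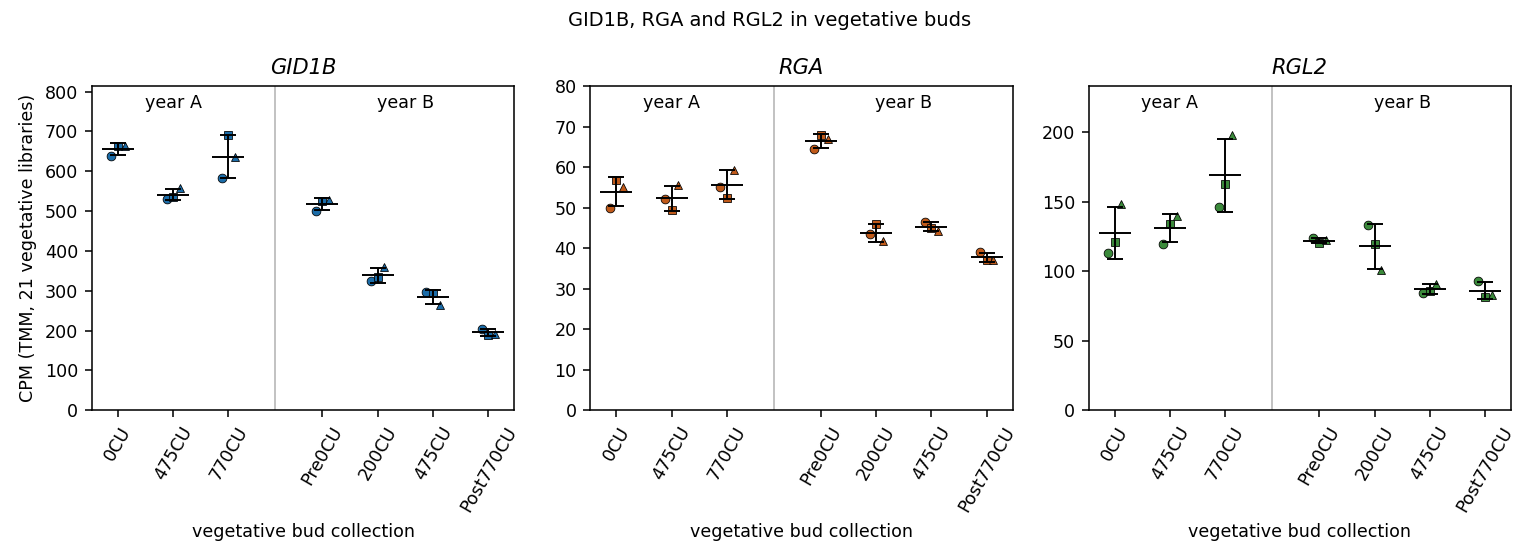
CPM (TMM scaling over the 21 vegetative bud libraries) of *GID1B*, *RGA* and *RGL2* in each collection of year A and year B, with points for the libraries, marked by replicate number, and bars for the mean and SD (n = 3). In year B *GID1B* stepped down over the 4 collections to 195 ± 7.73 CPM. In year A, which started later in the season, its means lay between 541 and 655 CPM. The years therefore do not cover the same span.

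The DELLA gene *RGA* changed mainly at the first step of year B, which was also the longest in time. It had 64.6, 67.9 and 67.0 CPM at Pre0CU, 43.5, 46.0 and 41.8 CPM at 200CU, 46.5, 45.0 and 44.3 CPM at 475CU, and 39.1, 37.2 and 37.0 CPM at Post770CU. All later libraries lay below those of Pre0CU, the 200CU and 475CU libraries overlapped, and the Post770CU libraries were the lowest. The log2 fold change was -0.60 (SE 0.06, adjusted p = 2.58e-07) at 200CU over Pre0CU, close to that of *GID1B* in the same comparison. It was -0.55 (SE 0.06, adjusted p = 6.78e-07) at 475CU over Pre0CU and -0.82 (SE 0.06, adjusted p = 1.23e-09) at Post770CU over Pre0CU, a 1.76-fold lower level. Between 475CU and 200CU the difference was 0.05 (95% interval -0.08 to 0.18). The last step, Post770CU over 475CU, was -0.26 (95% interval -0.39 to -0.13, adjusted p = 0.00381) and stayed under the fold limit.

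The DELLA gene *RGL2* did not pass the test at 200CU and was lower from 475CU on. It had 124, 120.0 and 122 CPM at Pre0CU, 133, 119 and 101 CPM at 200CU, 84.1, 85.8 and 91.0 CPM at 475CU, and 92.8, 81.6 and 83.1 CPM at Post770CU. The 200CU libraries spread around those of Pre0CU, and the 475CU and Post770CU libraries overlapped each other and lay below all earlier ones. The log2 fold change was -0.05 (95% interval -0.28 to 0.18) at 200CU over Pre0CU. It was -0.49 (SE 0.11, adjusted p = 0.00151) at 475CU over Pre0CU and -0.51 (SE 0.11, adjusted p = 6.74e-04) at Post770CU over Pre0CU, both just past the fold limit. At Post770CU over 475CU it was -0.02 (95% interval -0.25 to 0.21). The step at 475CU over 200CU was -0.44 (95% interval -0.67 to -0.20, adjusted p = 0.0132), under the fold limit.

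The *RGL2* calls were lost when some single libraries were left out. At 475CU over Pre0CU the values stayed between -0.52 and -0.46 with any 1 library left out, but the call was lost without Pre0CU replicate 1 or 3 or 475CU replicate 1 or 2. At Post770CU over Pre0CU the values were -0.57 to -0.47, and the call was lost without Post770CU replicate 2 or 3. The calls of *GID1B* and *RGA* against Pre0CU kept their direction and their side of the threshold with any 1 library left out.

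Counted over the 3 genes, 2 were called lower at 200CU over Pre0CU (11.2% of the 26752 genes tested were lower in that comparison), 3 at 475CU over Pre0CU (12.8% of all genes) and 3 at Post770CU over Pre0CU (19.2% of all genes). None of the 3 genes was called at 475CU over 200CU, where 6.31% of all genes were called in either direction, unadjusted p was below 0.05 for 2 of them, and DESeq2 with the same limits called 0. At Post770CU over 475CU 1 gene, *GID1B*, was called lower (9.88% of all genes). The median log2 fold change of all genes was 0.03, 0.04 and 0.02 in the 3 comparisons with Pre0CU.

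**Figure D2:**
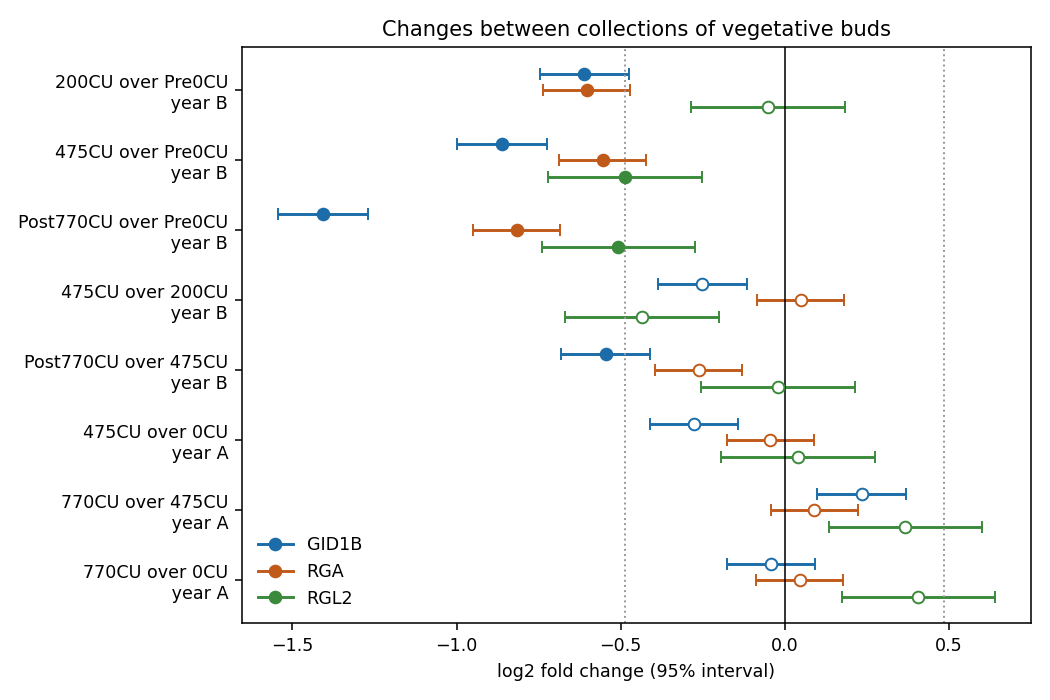
Log2 fold change (x axis) with its 95% interval for *GID1B*, *RGA* and *RGL2* in the 5 comparisons of year B and the 3 of year A in vegetative buds. Filled points passed both limits, open points did not, and the dotted lines mark the fold limit of 1.4. All filled points belong to year B and stand on the negative side. The collections of year A started later in the season, so the years differ in span.

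Markers of the shoot meristem were also lower than at Pre0CU in year B. The 5 markers chosen for it (*STM*, *KNAT1*, 2 further KNOX genes and *CLAVATA3/ESR*) were all called lower at 200CU over Pre0CU, 3 of 5 at 475CU over Pre0CU and 4 of 5 at Post770CU over Pre0CU. Their summed level was 264 to 282 CPM at Pre0CU, 98.3 to 109 CPM at 200CU, 127 to 163 CPM at 475CU and 149 to 152 CPM at Post770CU. No marker was at 0 in any library. This sum was lowest at 200CU, where *GID1B* and *RGA* were called lower than at Pre0CU and *RGL2* was not. At 475CU over 200CU *STM* (1.55, adjusted p = 1.42e-07) and *KNAT1* (0.82, adjusted p = 1.77e-04) were called higher. The markers differed among themselves, since *CLAVATA3/ESR* was lowest at Post770CU, as *GID1B* and *RGA* were, with means of 41.5 CPM at Pre0CU, 20.7 CPM at 200CU, 18.6 CPM at 475CU and 11.5 CPM at Post770CU. In buds measured as a whole, fewer cells of a type and less RNA per cell cannot be told apart, and the part of the meristem markers in the result was not tested.

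The flower meristem gene *LFY* differed between replicates. It was above 10 CPM in 3 vegetative libraries, with 13.3 CPM in 200CU replicate 3 and 27.9 and 26.5 CPM in 475CU replicates 1 and 2 of year B, whereas 475CU replicate 3 had 3.52 CPM. Without these 3 libraries *GID1B* at Post770CU over 475CU was -0.44 (adjusted p = 0.00231), under the fold limit, and *RGL2* at 475CU over Pre0CU was -0.42 (adjusted p = 0.0559), so both calls were lost. Each of these values rests on 1 remaining library at 475CU, which is assumed to vary like the other groups.

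In the vegetative buds of year A none of the 3 genes was called between any collections. *GID1B* had 638, 664 and 664 CPM at 0CU, 531, 534 and 557 CPM at 475CU, and 582, 690.4 and 637 CPM at 770CU. The 475CU libraries lay below all others, and those of 0CU and 770CU overlapped. The log2 fold change was -0.28 (95% interval -0.41 to -0.14, adjusted p = 0.00187) at 475CU over 0CU and 0.23 (95% interval 0.10 to 0.37, adjusted p = 0.0114) at 770CU over 475CU, both under the fold limit. At 770CU over 0CU it was -0.04, with a 95% interval of -0.18 to 0.09.

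*RGA* had 49.9, 56.9 and 55.0 CPM at 0CU, 52.1, 49.4 and 55.5 CPM at 475CU, and 55.2, 52.5 and 59.4 CPM at 770CU. The 3 collections overlapped, and the 95% interval at 770CU over 0CU was -0.09 to 0.18. *RGL2* had 113, 121 and 148 CPM at 0CU, 119.6, 134 and 139 CPM at 475CU, and 146, 163 and 198 CPM at 770CU. The 0CU and 475CU libraries overlapped, and the 770CU libraries lay above those of 475CU and overlapped 1 of 0CU. The log2 fold change of *RGL2* at 770CU over 0CU was 0.41 (SE 0.11, 95% interval 0.17 to 0.64, adjusted p = 0.00467), under the fold limit. With any 1 library left out it was 0.34 to 0.58, and without 0CU replicate 3 or 770CU replicate 1 it passed the limit. Of all genes tested, 23.5% were called at 475CU over 0CU, 13.2% at 770CU over 475CU and 32.7% at 770CU over 0CU. Unadjusted p was below 0.05 for 1 of the 3 genes in the first comparison, 2 in the second and 1 in the last, and DESeq2 with the same limits called 0 in each. The summed level of the 5 shoot meristem markers was 446 to 485 CPM at 0CU, 444 to 505 CPM at 475CU and 429 to 487 CPM at 770CU, so the collections of year A overlapped in it. The sum hides changes of opposite sign, since at 770CU over 0CU 1 of the 5 markers was called higher and 2 lower. These were *STM* (0.71) and the 2 further KNOX genes (-1.08 and -1.35), and their part in the result was not tested.

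The years met at 1 labelled chilling, 475CU. *GID1B* there had 531, 534 and 557 CPM in year A and 296, 294 and 264 CPM in year B, a log2 fold change of 0.93 (SE 0.07, adjusted p = 1.18e-10). *RGL2* had 119.6, 134 and 139 CPM in year A and 84.1, 85.8 and 91.0 CPM in year B (0.59, SE 0.11, adjusted p = 7.57e-05). *RGA* had 52.1, 49.4 and 55.5 CPM in year A and 46.5, 45.0 and 44.3 CPM in year B (0.21, SE 0.06, adjusted p = 0.00503), under the fold limit. The libraries of the years did not overlap for any of the 3 genes, and for how many of all genes this held was not counted. The background was high, since year A was called higher for 24.2% of the genes tested and lower for 45.0%, and the median of all genes was -0.35. Between 4076 and 4756 genes were at 0 in a library of year A, against 14 to 38 in a vegetative library of year B. The summed level of the shoot meristem markers was 444 to 505 CPM in year A and 127 to 163 CPM in year B. The study dates the 475CU buds to early December in year A and to late November in year B, when the day was longer. Year, sequencing run, count table, date and day length cannot be told apart, and levels of the years are therefore not compared further.

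The bud types were compared at Pre0CU and at Post770CU of year B in a fit of these 10 libraries. At Post770CU *GID1B* and *RGL2* were higher in vegetative buds, and *RGA* stayed within the fold limit. *GID1B* had 237, 221 and 222 CPM in the vegetative, against 90.1 and 111 CPM in the flower buds at Post770CU, a log2 fold change of 1.17 (SE 0.08, adjusted p = 2.80e-08). At Pre0CU it had 591, 617 and 628 CPM in the vegetative, against 420.4 and 457 CPM in the flower buds (0.48, SE 0.07, adjusted p = 4.16e-04), just under the fold limit. All vegetative libraries lay above all flower libraries at both collections. With any 1 library left out the value at Pre0CU was 0.42 to 0.54, and it passed the fold limit without flower Pre0CU replicate 2 or vegetative Pre0CU replicate 1.

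**Figure D3:**
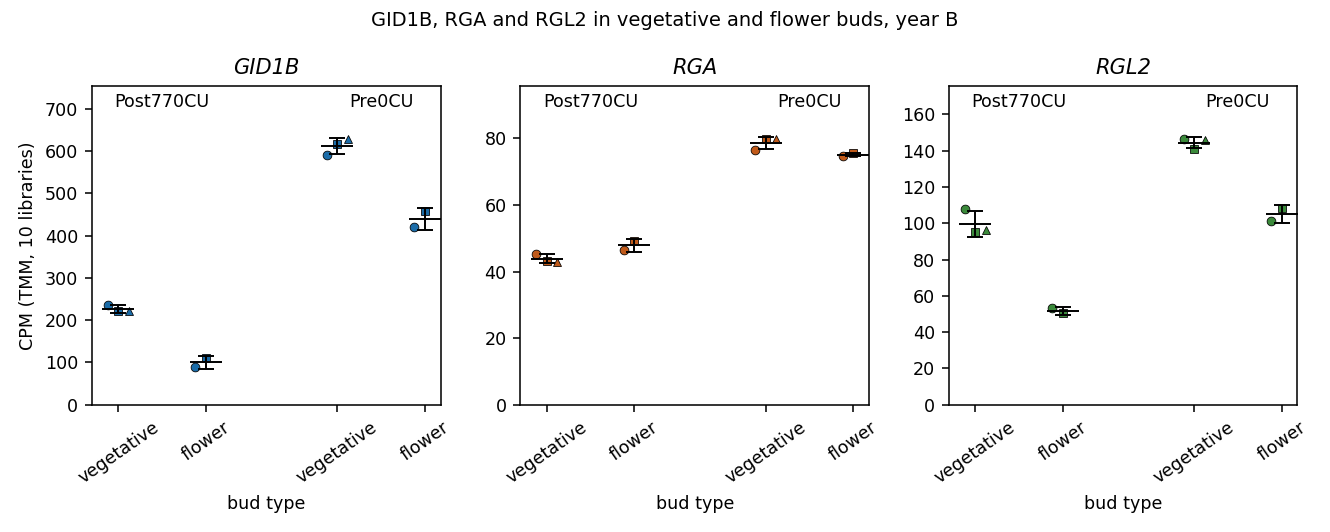
CPM (TMM scaling over 10 libraries) of *GID1B*, *RGA* and *RGL2* in vegetative and flower buds at Post770CU and at Pre0CU of year B, with points for the libraries and bars for the mean and SD (n = 3 vegetative and n = 2 flower libraries). At Post770CU the vegetative bars of *GID1B* (227 CPM) and *RGL2* (99.7 CPM) stand above the flower bars (101 and 51.9 CPM), and those of *RGA* lie close (43.8 and 47.9 CPM).

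*RGL2* had 108, 95.02 and 96.2 CPM in the vegetative, against 53.4 and 50.3 CPM in the flower buds at Post770CU, a log2 fold change of 0.94 (SE 0.06, adjusted p = 2.53e-08). At Pre0CU it had 146, 141 and 146 CPM in the vegetative, against 101 and 108 CPM in the flower buds (0.46, SE 0.06, adjusted p = 1.03e-04), under the fold limit. The bud types did not overlap at either collection. *RGA* had 45.4, 43.3 and 42.9 CPM in the vegetative, against 46.6 and 49.2 CPM in the flower buds at Post770CU (-0.13, 95% interval -0.23 to -0.03). At Pre0CU it had 76.5, 79.7 and 79.8 CPM in the vegetative, against 74.7 and 75.5 CPM in the flower buds (0.07, 95% interval -0.04 to 0.17). *RGA* was thus lower in vegetative buds at Post770CU by less than the fold limit. At Pre0CU it showed no clear side, since the interval held 0 (adjusted p = 0.380). Of the 3 genes 2 were called higher in vegetative buds at Post770CU, where 13.0% of all 26790 genes tested were, and 0 at Pre0CU, where 7.88% were called in either direction. At Pre0CU 2 of the 3 genes had an unadjusted p below 0.05, and DESeq2 called 0 of the 3 with the same limits.

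The labelled bud types were checked with *LFY*, which had 5.07 ± 0.0801 CPM in the vegetative and 82.0 ± 2.79 CPM in the flower buds at Post770CU (SD, n = 3 and n = 2). The summed level of the 3 flower meristem markers was 11.6 to 13.5 CPM in vegetative and 132 to 138 CPM in flower buds at Post770CU. At Pre0CU it was 17.3 to 18.6 CPM in vegetative and 103 to 111 CPM in flower buds. Not every marker followed the sum, and *AGL20B* had 1.24 to 1.86 CPM in the vegetative and 1.38 to 1.42 CPM in the flower buds at Post770CU (0.18, adjusted p = 0.517). The shoot meristem markers differed too. At Post770CU *KNAT1* (1.19, adjusted p = 7.45e-08) and *CLAVATA3/ESR* (0.52, adjusted p = 0.00196) were called higher in vegetative buds and *STM* (-1.48, adjusted p = 4.21e-08) lower. The summed level of these 5 markers was 172 to 177 CPM in the vegetative and 144 to 154 CPM in the flower buds at Post770CU, and 315 to 332 CPM in the vegetative and 287 to 328 CPM in the flower buds at Pre0CU. The part of either marker list in the values of the 3 genes was not tested.

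From Pre0CU to Post770CU of year B all 3 genes fell in the flower buds too. *GID1B* had 90.1 and 111 CPM at Post770CU and 420.4 and 457 CPM at Pre0CU in flower buds, a log2 fold change of -2.13 (SE 0.08, adjusted p = 9.81e-11), which is 4.36-fold lower. *RGL2* had 53.4 and 50.3 CPM at Post770CU and 101 and 108 CPM at Pre0CU (-1.01, SE 0.06, adjusted p = 1.13e-08), which is 2.02-fold lower. *RGA* had 46.6 and 49.2 CPM at Post770CU and 74.7 and 75.5 CPM at Pre0CU (-0.65, SE 0.05, adjusted p = 1.09e-07), which is 1.57-fold lower. None of these 3 genes overlapped between the collections, with 2 libraries against 2, and for how many of all genes this held was not counted. In the same comparison 22.7% of all genes were called lower. Both flower collections carry the polyA label, so the labelled RNA did not change within this comparison. Of the 5 shoot meristem markers 4 were also called lower in flower buds, whereas *STM* was called higher (0.56, adjusted p = 5.05e-04). Their summed level was 144 to 154 CPM at Post770CU and 287 to 328 CPM at Pre0CU, and their part in the result was not tested.

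In the vegetative buds, fitted with the flower buds, the log2 fold change at Post770CU over Pre0CU was -1.43 for *GID1B*, -0.84 for *RGA* and -0.53 for *RGL2*, with all 3 called lower (22.0% of all genes were). The difference between the bud types in this change was 0.69 for *GID1B* (SE 0.10, adjusted p = 1.36e-04), which fell less in vegetative than in flower buds, and this passed both limits, as 11.4% of all genes did on the positive side. For *RGL2* the difference was 0.48 (SE 0.08, adjusted p = 4.26e-04), or 1.395-fold, just under the fold limit. With any 1 library left out it was 0.42 to 0.53 and was called in 6 of 10 cases. For *RGA* the difference was -0.19 (SE 0.07, 95% interval -0.34 to -0.05, adjusted p = 0.0346), of the opposite sign. The labelled RNA differs between the collections in vegetative buds and not in flower buds, so this difference and the labelled RNA cannot be told apart.

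Ratios between the 3 genes within a library do not depend on the scaling between libraries. The receptor count over the *RGA* count, on the log2 scale, had a mean of 2.96 at Pre0CU, 2.95 at 200CU, 2.65 at 475CU and 2.37 at Post770CU in the vegetative buds of year B. The value of such a ratio also depends on the lengths of both genes, so only its difference between collections is read. In flower buds the same log2 ratio was 1.06 at Post770CU and 2.54 at Pre0CU. In year A it was 3.60 at 0CU, 3.37 at 475CU and 3.51 at 770CU. The log2 ratio of *GID1B* over *RGL2* was 1.19 at Post770CU and 2.08 at Pre0CU in vegetative buds, and 0.95 at Post770CU and 2.06 at Pre0CU in flower buds. The groups did not overlap in these 4 comparisons of Post770CU with Pre0CU. In year A the *GID1B* over *RGL2* log2 ratio was lower at 770CU (1.92) than at 0CU (2.37), a difference of -0.45 with no overlap, whereas *GID1B* over *RGA* overlapped between these collections.

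**Figure D4:**
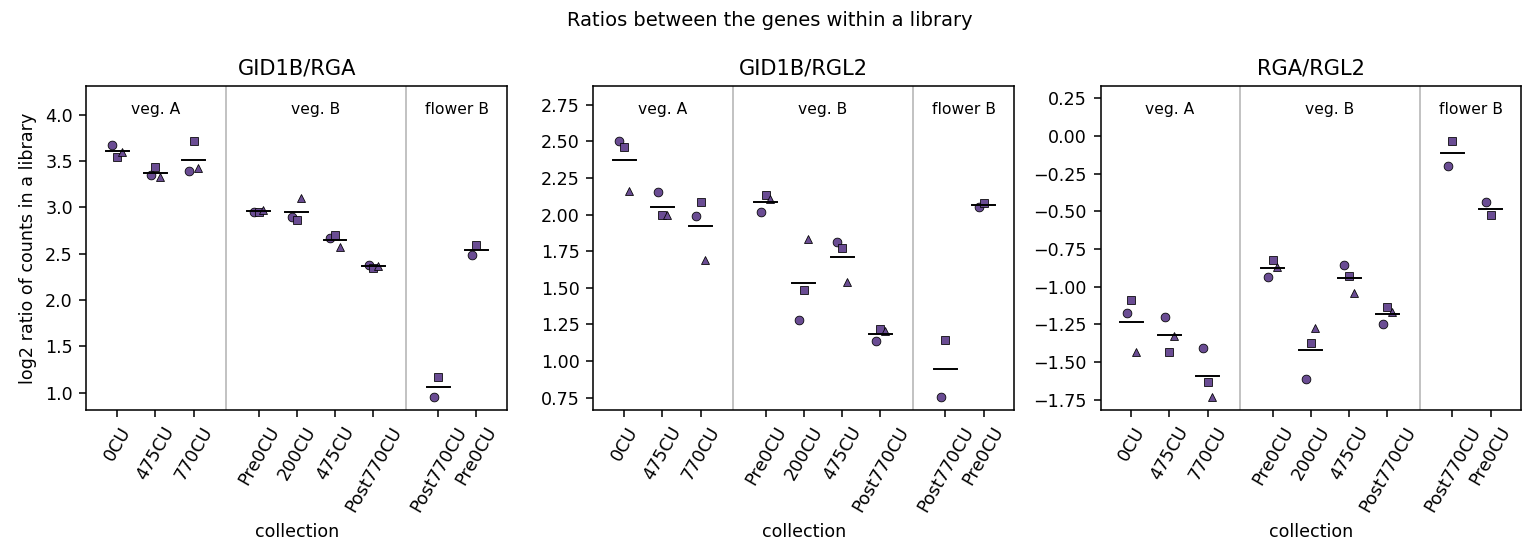
Log2 ratio of the counts of 2 of the 3 genes within a library (y axis) in each collection of vegetative buds of year A and B and of flower buds of year B, with points for the libraries and lines for the mean. The *GID1B*/*RGA* ratio of flower buds lies at 1.06 at Post770CU and at 2.54 at Pre0CU.

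The *RGA* count over the *RGL2* count differed between Post770CU and Pre0CU with opposite signs in the bud types, and this contrast was not itself tested. Its log2 value was -1.18 at Post770CU and -0.88 at Pre0CU in vegetative buds, and -0.12 at Post770CU and -0.48 at Pre0CU in flower buds, with no overlap in either. The difference was -0.31 in vegetative buds and 0.37 in flower buds. Over the 18 ratio comparisons the two-sided exact permutation test cannot go below p = 0.1 with 3 libraries against 3, p = 0.2 with 3 against 2 and p = 0.333 with 2 against 2. Every comparison whose groups did not overlap gave the smallest p its size allows, the lowest adjusted p was 0.3, and so no ratio comparison passed 0.05.

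The 11 other GA genes that the study names are 6 of synthesis, 4 of inactivation and 1 further DELLA gene, *RGL1*. They come from the same selection as the 3 genes above, so their counts are not independent evidence of a direction. At Post770CU over Pre0CU in vegetative buds 4 of the 11 rose, 4 fell and 3 were not called, with a median of 0.24 against 0.02 for all genes, of which 35.5% were called. In flower buds 6 rose, 4 fell and 1 was not called, with a median of 0.99 against 0.00387 for all genes, of which 44.5% were called. At 770CU over 0CU in year A 7 rose, 3 fell and 1 was not called, with a median of 0.94 against 0 for all genes, of which 32.7% were called.

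The third DELLA gene, *RGL1* (PRUPE_4G132100), rose where *RGA* and *RGL2* fell, at low counts. It had 1.22, 1.53 and 1.15 CPM at Pre0CU, 2.17, 2.49 and 2.72 CPM at 200CU, 2.16, 2.61 and 2.86 CPM at 475CU, and 4.82, 5.55 and 4.65 CPM at Post770CU in the vegetative buds of year B. The Post770CU libraries lay above all others and the Pre0CU libraries below all others. It rose at Post770CU over Pre0CU by 1.94 (SE 0.29, adjusted p = 1.13e-05) in vegetative buds and by 1.71 (SE 0.20, adjusted p = 3.79e-06) in flower buds. In year A it had 0.959, 0.293 and 0.128 CPM at 0CU, 9.66, 9.18 and 10.5 CPM at 475CU, and 5.84, 7.85 and 7.40 CPM at 770CU. There it rose by 4.36 (SE 0.35, adjusted p = 9.27e-09) at 475CU over 0CU, where none of *GID1B*, *RGA* and *RGL2* was called.

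**Figure D5:**
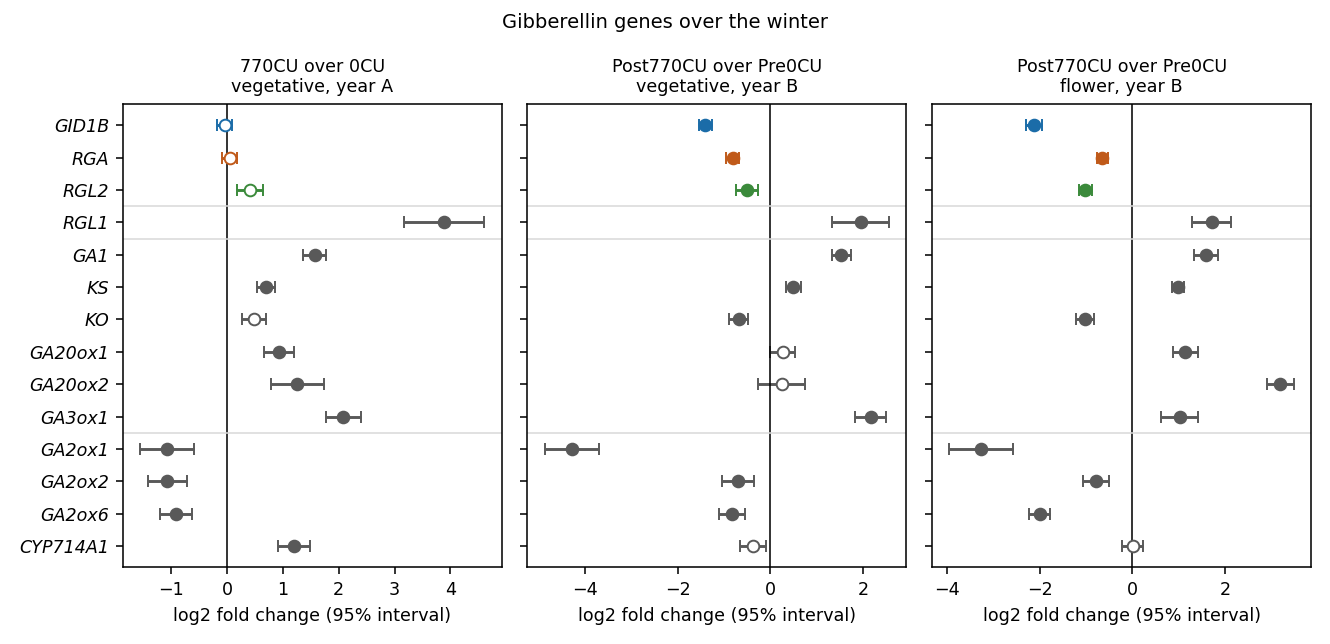
Log2 fold change (x axis) with its 95% interval for the receptor and DELLA genes (at the top), the genes of GA synthesis (*GA1* to *GA3ox1*) and the genes of GA inactivation (*GA2ox1* to *CYP714A1*), at the last over the first collection of each winter and bud type. Filled points passed both limits, and *RGL1* stands on the positive side in all 3 panels. *GID1B* is at -0.04 in year A, -1.41 in vegetative buds of year B and -2.13 in flower buds. The first collection of year A fell later in the season than that of year B, so the panels do not cover the same span.

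Among the synthesis genes, *GA3ox1*, whose enzyme makes the bioactive GA forms, rose by 2.16 (SE 0.16, adjusted p = 5.17e-10) at Post770CU over Pre0CU in vegetative buds, and *GA1*, whose enzyme opens the pathway, rose by 1.53 (SE 0.10, adjusted p = 1.00e-10). *GA20ox2*, whose enzyme makes the precursors of the bioactive forms, rose by 3.20 (SE 0.14, adjusted p = 2.18e-10) in flower buds and had 0.24 (SE 0.24, adjusted p = 0.443) in vegetative buds of year B. In the vegetative buds of year A *GA20ox2* was called higher at 770CU over 0CU (1.25, SE 0.23, adjusted p = 1.07e-04). The synthesis gene *KO* fell in both bud types, by 0.69 (SE 0.10, adjusted p = 6.06e-06) in vegetative and by 1.03 (SE 0.09, adjusted p = 3.16e-07) in flower buds. All 3 genes named GA2ox, whose enzymes inactivate GA, fell in both bud types at Post770CU over Pre0CU. Of all genes tested, 19.2% were called lower in vegetative and 22.7% in flower buds. *GA2ox1* was the most changed of the 3, at -4.29 (SE 0.28) in vegetative and -3.27 (SE 0.32) in flower buds. The fourth inactivation gene, *CYP714A1*, was not called in either bud type (-0.37 in vegetative and 0.0038 in flower buds) and was called higher at 770CU over 0CU in year A (1.19, adjusted p = 3.76e-07). In year A, where *GID1B* and *RGA* differed by less than 0.1 on the log2 scale between 770CU and 0CU, the synthesis genes *GA3ox1* (2.08) and *GA1* (1.57) were also called higher.

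The genes whose pattern was most like each of the 3 were sought over the 21 vegetative libraries, with the mean of each year's table subtracted, among the 13834 genes whose log2 CPM averaged 3 or more. These correlations are descriptions over libraries that share collections and depth. For *GID1B* the highest Pearson r was 0.976 (PRUPE_2G222600) and the lowest -0.982 (PRUPE_5G092800). Among the 67 of these genes that the study names, it was highest for *CLAVATA3/ESR* (0.952), a meristem gene, followed by *RGA* (0.900) and *OPCL1* (0.878), a gene of jasmonate synthesis. *CLAVATA3/ESR* had 39.7 to 42.8 CPM at Pre0CU, 18.6 to 23.5 CPM at 200CU, 17.3 to 20.1 CPM at 475CU and 9.98 to 13.7 CPM at Post770CU in year B. For *RGA* r was highest with PRUPE_2G058500 (0.978) and, among the named genes, with *JAR-like* (0.917), *CLAVATA3/ESR* (0.909) and *GID1B* (0.900).

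*RGL2* stood further from the named genes, with r = 0.694 for *JAZ3*, 0.632 for *GID1B* and 0.591 for *RGA*, although PRUPE_1G120200 reached 0.929. The likeness of *GID1B* and *RGA* lay in year B, where r was 0.931 over 12 libraries. Over the 9 libraries of year A it was 0.334. The same held for the other named genes most like these 2. For *GID1B* the year A value was 0.446 with *CLAVATA3/ESR* and 0.252 with *OPCL1*, against 0.977 and 0.953 in year B. For *RGA* it was 0.203 with *JAR-like* and, with the sign turned, -0.221 with *CLAVATA3/ESR*, against 0.973 and 0.966 in year B.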

How the data were processed

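RNA sequencing of 21 vegetative and 4 flower bud libraries was deposited by the authors as raw counts per gene in 3 tables without normalization. Reads had been trimmed with fastp, mapped with STAR to the peach genome and counted on exons with bedtools (2.30.1 in the submitters' processing notes), and duplicated reads had been discarded. The strand setting of the counting is not given in the sources used here, so reads of antisense genes are not excluded. Year A counts were mostly even, so each read pair may have been counted as 2.

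Tests used edgeR (version 4.0.16, R 4.3.3) by quasi-likelihood, after filterByExpr (minimum count 10, minimum total 15) and TMM scaling. One fit held the 21 vegetative libraries in 7 groups and another the 10 libraries of Pre0CU and Post770CU of both bud types, so CPM of a library differ between the fits. P-values were adjusted by Benjamini-Hochberg over all genes tested, and calls needed an FDR under 0.05 together with a change beyond 1.4-fold. Intervals are 95% intervals of the fit. The spread between replicates was not equal over the collections that share an estimate. For *RGL2* the SD was 1.81 CPM at vegetative Pre0CU and 26.2 CPM at 770CU. Ratios within a library used counts plus 0.5 and two-sided exact permutation tests (scipy 1.17.1). Log2 CPM for the correlations used a prior count of 2. The columns name a collection and a replicate number, and 0 columns of values were left without a group. The count tests were run on simulated data with the same spread for every gene and group, which cannot show how they hold for the unequal spread here.

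Named were the 3 genes, the 11 other GA genes and the 8 meristem markers of the study, and for each of the 3 genes the most similar and least similar patterns; the members and lists were chosen with earlier results of these data known. Of the gene table given for names, 0 identifiers matched those of the counts, so gene lengths, sequences and further receptor or DELLA genes were not used here. Alternatives were DESeq2 1.42.0, RLE size factors, no filter, no fold change limit, a replicate block, year A counts halved, libraries of 1 table only, all 25 libraries in one fit, counts plus 5 for ratios, and leaving out each replicate.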

Additional observations from a re-analysis of the deposited data

Results flagged for a closer look

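The change of *GID1B* from Pre0CU to Post770CU of year B differed between the bud types. The change at Post770CU over Pre0CU in vegetative buds minus that in flower buds was 0.69 on the log2 scale (edgeR interaction term, adjusted p = 1.36e-04). *GID1B* was lower at Post770CU than at Pre0CU in both bud types. For *RGL2* the difference between the bud types was 0.48 (adjusted p = 4.26e-04), and the gene was lower at Post770CU in both. For *RGA* it was -0.19 (adjusted p = 0.0346), so that this gene had the larger decrease in vegetative buds and the others in flower buds. The differences of *RGL2* and *RGA* were under the fold limit, and that of *GID1B* passed it. Among all genes tested 11.4% passed the adjusted p and the fold limit with a positive difference, as *GID1B* did. On the adjusted p alone 10438 of the 26790 genes tested passed in either direction. The labelled RNA changed between the collections of vegetative buds alone and cannot be told apart from these differences.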

How the results depend on the processing

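Of 42 values of the 3 genes (3 genes in 14 comparisons), the call and the direction were the same for 42 without the filter on low counts and for 41 each under RLE size factors and DESeq2. The exception was *RGL2* in the interaction of bud type and winter, which was called at 0.49 under RLE size factors and at 0.49 under DESeq2, and at 0.50 with all 25 libraries in one fit. All other values compared in that fit (14 of 15), all 27 with year A counts halved, all 24 with the libraries of 1 table only and all 18 ratios with counts plus 5 had the same call and direction. Without a fold change limit 13 further values were called: *GID1B* at -0.25 (475CU over 200CU), -0.28 (475CU over 0CU), 0.23 (770CU over 475CU) and 0.48 (bud types at Pre0CU), *RGA* at -0.26 (Post770CU over 475CU), 0.21 (475CU of the years), -0.13 (bud types at Post770CU) and -0.19 (interaction), and *RGL2* at -0.44 (475CU over 200CU), 0.37 (770CU over 475CU), 0.41 (770CU over 0CU), 0.46 (bud types at Pre0CU) and 0.48 (interaction). Without the 3 libraries with *LFY* above 10 CPM, an alternative chosen after seeing the data, *RGL2* at 200CU over Pre0CU turned to 0.049 and *RGA* at 475CU over 200CU to -0.016, both uncalled, *RGL2* at 475CU over Pre0CU was no longer called (-0.42), and nor was *GID1B* at Post770CU over 475CU (-0.44). This leaves fewer libraries, and the cause was not tested.

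Leaving out each replicate in turn gave these ranges where a call or a sign changed: *GID1B* -0.069 to 0.080 (770CU over 0CU) and 0.42 to 0.54 (bud types at Pre0CU), *RGA* -0.079 to 0.016 (475CU over 0CU), and *RGL2* -0.016 to 0.18 (475CU over 0CU), 0.28 to 0.50 (770CU over 475CU), 0.34 to 0.58 (770CU over 0CU), -0.15 to 0.049 (200CU over Pre0CU), -0.54 to -0.34 (475CU over 200CU), -0.52 to -0.46 (475CU over Pre0CU), -0.57 to -0.47 (Post770CU over Pre0CU), -0.079 to 0.015 (Post770CU over 475CU), 0.41 to 0.51 (bud types at Pre0CU) and 0.42 to 0.53 (interaction). *RGL2* was called at 475CU over 200CU without 200CU replicate 3, at 770CU over 475CU without 770CU replicate 1, and between the bud types at Pre0CU without flower replicate 2. The ratio of *GID1B* over *RGL2* between the bud types at Pre0CU ranged between -0.0028 and 0.055. With a replicate block 42 of 42 values had the same call, and the largest shift was 0.0087. Replicate numbers did not pair the samples: over pairs with the same number the correlation of deviations was -0.09 to 0.17 in year A and -0.03 to 0.03 in year B, with 1 of 9 and 0 of 18 pairs above 0.1.

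Counts of all called genes moved by more than 1.5 times without a fold change limit in 11 comparisons. They were 9815 against 5447 with the limit at 200CU over Pre0CU, 10821 against 6179 at 475CU over Pre0CU, 3436 against 1687 at 475CU over 200CU, 7496 against 3625 at Post770CU over 475CU, 10671 against 6274 at 475CU over 0CU, 6687 against 3519 at 770CU over 475CU, 13324 against 8752 at 770CU over 0CU, 5286 against 2112 and 13450 against 7578 between the bud types at Pre0CU and at Post770CU, 16335 against 10187 for the winter in vegetative buds of the fit of both bud types, and 10438 against 6594 in the interaction. The count also moved to 1321 between the bud types at Pre0CU with all 25 libraries in one fit, and without the libraries with high *LFY* to 603 at 475CU over 200CU and to 2240 against 3625 at Post770CU over 475CU. Of the 11 other GA genes, 2 were called at 475CU over 200CU, against 5 without a fold change limit, 1 without 200CU replicate 3 and 0 without the libraries with high *LFY*. Between the bud types at Pre0CU 3 were called, against 5 without a fold change limit and 6 without flower replicate 2. Flower buds had 2 libraries per collection, which limits the precision of every value they enter.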
